A study of Mus musculus with 2 samples.

Results

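The genes described here encode 10 secreted immune signals: the interleukins Il6, Il1a, Il1b and Il18, the interleukin-1 receptor antagonist Il1rn, the tumour necrosis factor Tnf, the leukaemia inhibitory factor Lif, and the colony-stimulating factors Csf1, Csf2 and Csf3. They were taken by symbol from a table of 26607 rows. Each of the 10 symbols had a single row, and all 10 passed the filter used for comparisons, a mean of at least 1 FPKM (mapped fragments per kilobase of transcript, relative to the depth of the library) over both libraries. The RNA came from primary microglia in culture, the macrophages that reside in brain and spinal cord. There were 2 libraries: 1 from cells transfected with a vector to overexpress Per2, a repressor of the circadian clock, and 1 from cells given a control vector. The labels name neither the promoter of the vector nor the age or strain of the animals, and they do not say how many animals each culture pooled. Each group is 1 library, so no value below has an error or a test, and each ratio describes this pair of libraries only.

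Microglia that sense damage or microbial products switch on a set of secreted proteins through Toll-like receptors and the transcription factor NF-kB. Interleukin-1 alpha and beta and tumour necrosis factor start the response in neighbouring cells, interleukin-6 and LIF act through the shared receptor chain gp130 on STAT3, and the colony-stimulating factors keep myeloid cells alive or recruit them. Interleukin-1 beta and interleukin-18 are made as precursors that caspase-1 cuts. The interleukin-1 receptor antagonist occupies the same receptor as interleukin-1 without starting a signal.

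The Per2 transcript went against the labels: it had 0.927 FPKM in the overexpression-labelled library, against 6.90 FPKM in the control-labelled library. Directions below go by these labels and do not stand for a measured gain in Per2 mRNA. Whether the columns of the libraries were exchanged was not tested, and an exchange would turn each direction given below. The labels give mouse as the organism, while the identifiers of the table are rat. The deposited values summed to 760286 FPKM in the overexpression-labelled library and to 659696 FPKM in the control-labelled library, and their depth is unknown. A log2 ratio below is log2 of FPKM + 1 in the overexpression-labelled library over FPKM + 1 in the control-labelled library, and a gene is counted as different at 2-fold or more on that scale. Of 12369 rows compared, 271 (2.19%) were higher by 2-fold or more in the overexpression-labelled library and 733 (5.93%) were lower by that much. The numbers were 189 and 1400 after rescaling to TPM (each library to the same total) and 533 and 433 after centring on the median ratio, so the balance between higher and lower genes depended on the scaling. The median log2 ratio of all rows was -0.18, and it was -0.37 after rescaling to TPM and 0.01 after centring.

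Of the 10 cytokine genes, 3 were higher by 2-fold or more in the overexpression-labelled library, beside 2.19% of all rows, and 0 were lower by that much, beside 5.93%. The 3 were Il6, Il1rn and Csf2. Csf3 lay just under the threshold with a log2 ratio of 0.96, where Csf2 lay just over it with 1.01. Log2 ratios were above 0 for 6 of the 10 genes, beside 35.9% of all rows, and below 0 for 4, beside 64.1%. After rescaling to TPM, 0 of the 10 were 2-fold higher (1.53% of all rows) and 1, Lif, was 2-fold lower (11.3%). After centring, 4 of the 10 were 2-fold higher (4.31%). The median of the 10 was 0.38. It stayed above 0 in all alternatives run, between 0.19 after rescaling to TPM and 0.59 with a minimum mean of 5 FPKM. That minimum left out Lif, so 0.59 is the median of the other genes. The 10 genes summed to 1306 FPKM in the overexpression-labelled library and to 971 FPKM in the control-labelled library.

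**Figure D1:**
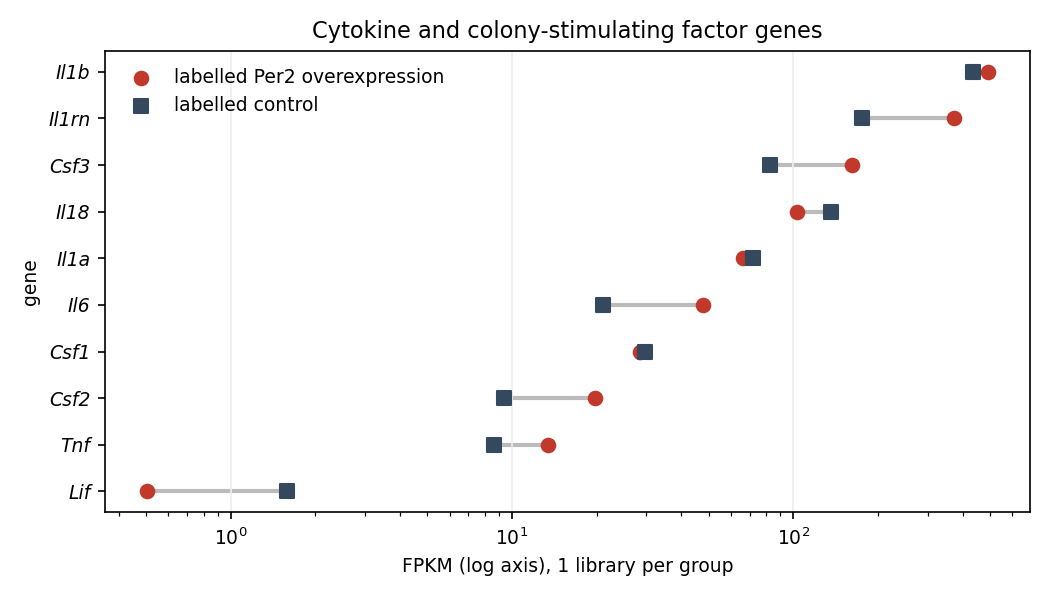
FPKM on a log axis for the 10 genes in the library labelled Per2 overexpression (circles) and in the library labelled control (squares), 1 library per group and no error bars, ordered by the level in the overexpression-labelled library. Il6, Il1rn, Csf3, Csf2 and Tnf lie to the right in the overexpression-labelled library, while Lif and Il18 lie to the left.

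The interleukin-1 family held most of the signal. Il1b (ENSRNOG00000004649), which encodes interleukin-1 beta, was the most abundant of the 10 genes in both libraries, with 491 FPKM in the overexpression-labelled library and 436 FPKM in the control-labelled library. It ranked 253rd of all rows in the overexpression-labelled library and 226th in the control-labelled library. The ratio of its deposited values was 1.13, and the direction of its log2 ratio of 0.17 did not hold: it was -0.03 after rescaling to TPM and -0.01 with the trend with transcript length removed. Il1a (ENSRNOG00000004575), whose product interleukin-1 alpha is active as a precursor and is released by dying cells, had 66.5 FPKM in the overexpression-labelled library and 71.7 FPKM in the control-labelled library. Its log2 ratio of -0.11 turned to 0.08 after centring on the median ratio. Il1b and Il1a were thus close to level between the libraries, and Il1b exceeded Il1a 7.38-fold in the overexpression-labelled library and 6.08-fold in the control-labelled library.

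The antagonist differed more than the agonists. Il1rn (ENSRNOG00000005871) had 374 FPKM in the overexpression-labelled library, against 175 FPKM in the control-labelled library, a log2 ratio of 1.09. Of all rows compared, 1.63% had a higher ratio. Relative to Il1b within the same library, which no scaling can change, Il1rn stood at 0.763 in the overexpression-labelled library and at 0.401 in the control-labelled library. Relative to Il1a it stood at 5.63 in the overexpression-labelled library and at 2.44 in the control-labelled library. Il1rn was 2nd among the 10 genes in both libraries and made up 28.7% of their summed FPKM in the overexpression-labelled library and 18.0% in the control-labelled library.

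Il18 (ENSRNOG00000009848), which encodes an inducer of interferon gamma in lymphocytes, went the other way. It had 103 FPKM in the overexpression-labelled library and 136 FPKM in the control-labelled library, a log2 ratio of -0.40 that stayed below 0 in all alternatives run, from -0.85 with the length trend removed to -0.21 after centring. The trend of the ratio with transcript length, described below, ran at 0.45 for genes of its length (885 nt), and with it removed 96.1% of rows had a higher value than Il18. Together, Il1b, Il1rn, Il1a and Il18 made up 79.2% of the summed FPKM of the 10 genes in the overexpression-labelled library and 84.3% in the control-labelled library.

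The members of the interleukin-6 family stood at opposite ends before any adjustment for transcript length. Il6 (ENSRNOG00000010278), a driver of the acute-phase response and of STAT3 signalling, had 47.8 FPKM in the overexpression-labelled library, against 21.1 FPKM in the control-labelled library. Its log2 ratio of 1.15 was the highest of the 10 genes, and 1.46% of all rows had a higher one. Lif (ENSRNOG00000007002), which supports glial precursors and astrocyte formation, had 0.504 FPKM in the overexpression-labelled library and 1.58 FPKM in the control-labelled library. Its log2 ratio of -0.78 was the lowest of the 10, and 88.7% of rows had a higher one. The deposited values of Lif differed 3.13-fold in favour of the control-labelled library, and the added 1 FPKM shrinks this difference because Lif was the scarcest of the 10 genes. Its log2 ratio was -1.48 with 0.1 added instead of 1 and -1.03 after rescaling to TPM, but -0.59 after centring, -0.42 with the length trend removed and -0.26 with 5 added. With the length trend removed, Il18 (-0.85) and not Lif was the lowest of the 10, and 85.5% of rows were above Lif. Il6 exceeded Lif 94.9-fold in the overexpression-labelled library and 13.3-fold in the control-labelled library.

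Tnf (ENSRNOG00000055156), which encodes tumour necrosis factor, was scarce beside the interleukins, with 13.4 FPKM in the overexpression-labelled library and 8.60 FPKM in the control-labelled library. Its log2 ratio of 0.59 was under the threshold in all alternatives run, with a range of 0.41 to 0.78, and 8.24% of rows had a higher one. Il6 stood at 3.56 times the level of Tnf in the overexpression-labelled library and at 2.45 times in the control-labelled library. For Il1b the multiples of Tnf were 36.6 in the overexpression-labelled library and 50.6 in the control-labelled library.

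Of the colony-stimulating factors, those that act on granulocytes and macrophages in inflammation were higher in the overexpression-labelled library, and the factor that maintains microglia was nearly level. Csf3 (ENSRNOG00000008525), or G-CSF, which drives neutrophil production, had 162 FPKM in the overexpression-labelled library, against 82.7 FPKM in the control-labelled library. Csf2 (ENSRNOG00000026805), or GM-CSF, had 19.8 FPKM in the overexpression-labelled library, against 9.33 FPKM in the control-labelled library. Of all rows, 2.45% had a higher ratio than Csf3 and 2.13% a higher one than Csf2. With the length trend removed, 2.74% of rows were above Csf3 and 9.27% above Csf2. Csf3 exceeded Csf2 8.15-fold in the overexpression-labelled library and 8.86-fold in the control-labelled library, so the pair differed by similar factors between the libraries. Csf1 (ENSRNOG00000018659), or M-CSF, a ligand of the receptor on which microglia depend, had 28.4 FPKM in the overexpression-labelled library and 29.6 FPKM in the control-labelled library. Its log2 ratio of -0.06 was 0.13 after centring and 0.31 with the length trend removed, so it had no direction independent of the processing. Csf3 stood at 5.69 times the level of Csf1 in the overexpression-labelled library and at 2.80 times in the control-labelled library.

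The order of the 10 levels was similar in the libraries. From high to low it ran Il1b, Il1rn, Csf3, Il18, Il1a, Il6, Csf1, Csf2, Tnf and Lif in the overexpression-labelled library. In the control-labelled library Il18 stood above Csf3 and Csf1 above Il6, and the other positions were the same. Without replicates it cannot be said which neighbours in this order differ beyond their spread.

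The proximal promoters of the 3 genes past 2-fold in the overexpression-labelled library, and of Lif as the lowest before any length adjustment, are shown to let their regulatory letters be compared. The windows are the 250 bases before the start site of the mouse gene in RefSeq (GRCm38.p6), since no rat sequence was at hand, and 9 of the 10 genes had a window. They lie at chr5:30012864-30013113, plus strand for Il6, at chr11:54249900-54250149, minus strand for Csf2, at chr2:24336610-24336859, plus strand for the start site of Il1rn farthest upstream of 3 listed, and at chr11:4257318-4257567, plus strand for Lif. Capitals mark matches, on either strand, to the NF-kB consensus of 10 bases, to the AP-1 motif TGANTCA, to the E-box CACGTG or to the D-box TTANGTAA; no matches overlapped.
Il6: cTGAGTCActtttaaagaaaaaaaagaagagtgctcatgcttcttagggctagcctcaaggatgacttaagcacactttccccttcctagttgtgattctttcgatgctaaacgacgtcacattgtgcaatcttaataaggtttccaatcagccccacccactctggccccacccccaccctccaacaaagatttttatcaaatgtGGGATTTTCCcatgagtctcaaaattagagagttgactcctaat
Csf2: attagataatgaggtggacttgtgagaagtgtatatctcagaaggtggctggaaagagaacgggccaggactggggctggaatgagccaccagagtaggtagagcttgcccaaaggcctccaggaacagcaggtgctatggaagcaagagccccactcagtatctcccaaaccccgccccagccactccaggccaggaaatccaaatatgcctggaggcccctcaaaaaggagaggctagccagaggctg
Il1rn: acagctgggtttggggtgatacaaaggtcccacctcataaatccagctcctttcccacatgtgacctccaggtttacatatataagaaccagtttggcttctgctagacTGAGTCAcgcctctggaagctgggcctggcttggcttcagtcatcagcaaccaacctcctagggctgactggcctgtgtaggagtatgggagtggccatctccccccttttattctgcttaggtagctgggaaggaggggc
Lif: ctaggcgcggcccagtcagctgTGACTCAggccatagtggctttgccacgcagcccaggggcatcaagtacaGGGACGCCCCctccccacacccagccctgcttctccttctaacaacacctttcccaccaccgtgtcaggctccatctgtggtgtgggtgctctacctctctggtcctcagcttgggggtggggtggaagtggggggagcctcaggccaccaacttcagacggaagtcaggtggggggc
Il6 held an AP-1 match at bases -249 to -243 and an NF-kB match at -44 to -35, counted back from the start site. Lif held both as well, with AP-1 at -228 to -222 and NF-kB at -178 to -169. Il1rn held an AP-1 match at -141 to -135 in the window shown, and Csf2 held none of the 4 motifs in its window. The windows of the other start sites listed for Il1rn, farther downstream, held none of the 4 motifs. Of the 9 genes with a window, 3 held the NF-kB consensus (Il6, Lif and Csf1) and 4 the AP-1 motif (Il6, Lif, Il1rn and Il1a), while 0 held the E-box bound by CLOCK-BMAL1 or the D-box bound by DBP and NFIL3. Counted by window, 3 of the 11 windows of these genes held NF-kB, 4 held AP-1 and 0 held the E-box or the D-box. The shares of all 32851 mouse windows were 7.25% for NF-kB, 6.75% for AP-1, 6.02% for the E-box and 2.06% for the D-box. Il6 and Lif thus carried the same pair of motifs, and a match describes letters only.

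Transcript length moved with the ratio across all genes, and it touches each value above. Across 10139 rows with a length, taken from the longest coding transcript that GENCODE lists for the mouse symbol, Spearman's rho of log2 ratio against length was -0.50. Genes share libraries and are not replicates. The 6 cytokine genes with a log2 ratio above 0 had mouse transcripts of 800 to 2474 nt, and the 4 below 0 had 885 to 4176 nt. The median over all rows with a length was 3025 nt, and 8 of the 10 genes were shorter.

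With the length trend removed, 2 of the 10 genes, Il6 (1.29) and Il1rn (1.26), were at least 2-fold higher, beside 1.35% of rows with a length, and 0 were 2-fold lower, beside 2.40%. At their lengths the trend itself ran at -0.14 for Il6 and -0.16 for Il1rn, so their ratios stood above genes of like length. Csf2, with the shortest transcript of the 10 (800 nt), had 0.50 after the trend of 0.51 was taken off, and Csf3 had 0.80. Il1b (-0.01) and Il1a (-0.05) sat on the trend. The value of Il6 turned on which mouse transcript stood for the gene. The longest one has 2343 nt and the principal one 1141 nt, and with principal transcripts Il6 had 0.87 and was under 2-fold, while Il1rn, whose length was 2474 nt either way, had 1.28.

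**Figure D2:**
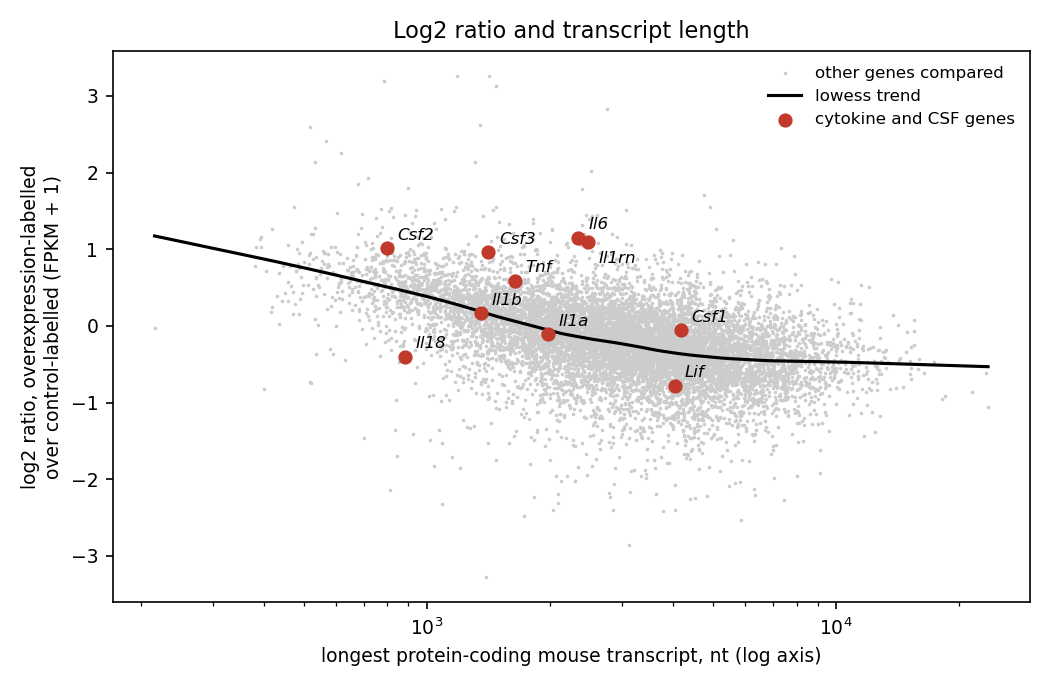
Log2 ratio of each gene compared (FPKM + 1, overexpression-labelled over control-labelled library) against the length of the longest protein-coding mouse transcript on a log axis; grey points are the other genes, the line is the lowess trend and red points are the 10 cytokine genes. Il6, Il1rn, Csf3 and Csf2 lie above the line, Il1b and Il1a lie on it, and Il18 (885 nt, log2 ratio -0.40) lies below it.

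**Figure D3:**
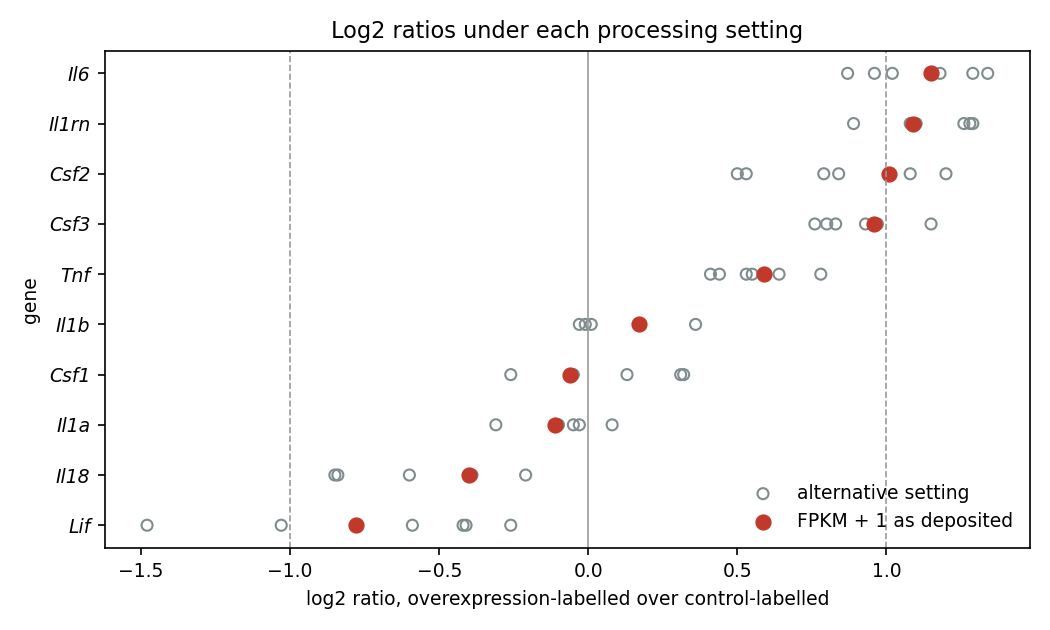
Log2 ratio of each of the 10 cytokine genes (overexpression-labelled over control-labelled library) as deposited with 1 FPKM added (red) and under each alternative setting (open circles), with 2-fold as dashed lines. Il6, Il1rn, Csf2, Csf3 and Tnf lie above 0 under all settings shown, Il18 and Lif lie below 0, and Il1b, Csf1 and Il1a lie on both sides of it.

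While several ligands were higher in the overexpression-labelled library, transcripts of their receptors mostly were not. Of 16 receptor, co-receptor and decoy genes, 13 passed the expression filter. Of these, 3 were lower by 2-fold or more, beside 5.93% of all rows, and 0 were higher by that much, beside 2.19%. Log2 ratios were below 0 for 11 of the 13, beside 64.1% of all rows, and above 0 for 2, beside 35.9%. The same shares of all rows stand beside the counts of the gene lists below. The median of the 13 was -0.38, beside -0.18 for all rows, and -0.10 with the length trend removed. With that trend removed, 1 of 12 genes was 2-fold lower, beside 2.40% of rows with a length, and 5 were above 0. Csf2rb differed most. Csf2rb, the shared signalling chain of the receptors for GM-CSF, interleukin-3 and interleukin-5, had 3.24 FPKM in the overexpression-labelled library, against 14.2 FPKM in the control-labelled library, a log2 ratio of -1.84 that was -1.44 with the length trend removed. Csf2ra, the chain that binds GM-CSF alone, had 94.3 FPKM in the overexpression-labelled library and 107 FPKM in the control-labelled library. Csf1r, the receptor for M-CSF, had 21.7 FPKM in the overexpression-labelled library and 51.5 FPKM in the control-labelled library, with a log2 ratio of -1.21 that was -0.81 with the length trend removed. Csf3r, the G-CSF receptor of neutrophils, was near the detection filter, with 0.821 FPKM in the overexpression-labelled library and 1.38 FPKM in the control-labelled library. Csf3 itself was thus abundant in both libraries while its receptor was scarce in both.

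The interleukin-1 receptors were scarce too. Il1r1, the signalling receptor, had 0.852 FPKM in the overexpression-labelled library, against 3.34 FPKM in the control-labelled library, a log2 ratio of -1.23 that was -0.80 with the length trend removed. Il1r2, the decoy receptor, had 2.23 FPKM in the overexpression-labelled library and 0.937 FPKM in the control-labelled library, a log2 ratio of 0.74 and the highest of the list. The decoy was therefore the more abundant of the pair in the overexpression-labelled library and the signalling receptor in the control-labelled library. The shared accessory chain Il1rap had 4.24 FPKM in the overexpression-labelled library and 4.80 FPKM in the control-labelled library. Sigirr, an inhibitory relative, was under the filter, with 0.561 FPKM in the overexpression-labelled library and a listed 0 in the control-labelled library.

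For interleukin-6, the binding chain Il6r (the rat symbol of Il6ra) had 3.71 FPKM in the overexpression-labelled library and 6.25 FPKM in the control-labelled library. The gp130 chain Il6st had 2.15 FPKM in the overexpression-labelled library and 4.52 FPKM in the control-labelled library, a log2 ratio of -0.81. Lifr, which pairs with gp130 to bind LIF, was barely listed, at 0.0854 FPKM in the overexpression-labelled library and 0.0878 FPKM in the control-labelled library. The tumour necrosis factor receptors were abundant and nearly level. Tnfrsf1a had 75.9 FPKM in the overexpression-labelled library and 77.6 FPKM in the control-labelled library, and Tnfrsf1b had 40.7 FPKM in the overexpression-labelled library and 47.9 FPKM in the control-labelled library. The interleukin-18 receptor chains were low, with Il18r1 at 0.213 FPKM in the overexpression-labelled library and 0.223 FPKM in the control-labelled library, and Il18rap at 1.28 FPKM in the overexpression-labelled library and 2.25 FPKM in the control-labelled library. Il18bp, which captures interleukin-18 outside the cell, had 21.8 FPKM in the overexpression-labelled library and 19.3 FPKM in the control-labelled library.

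**Figure D4:**
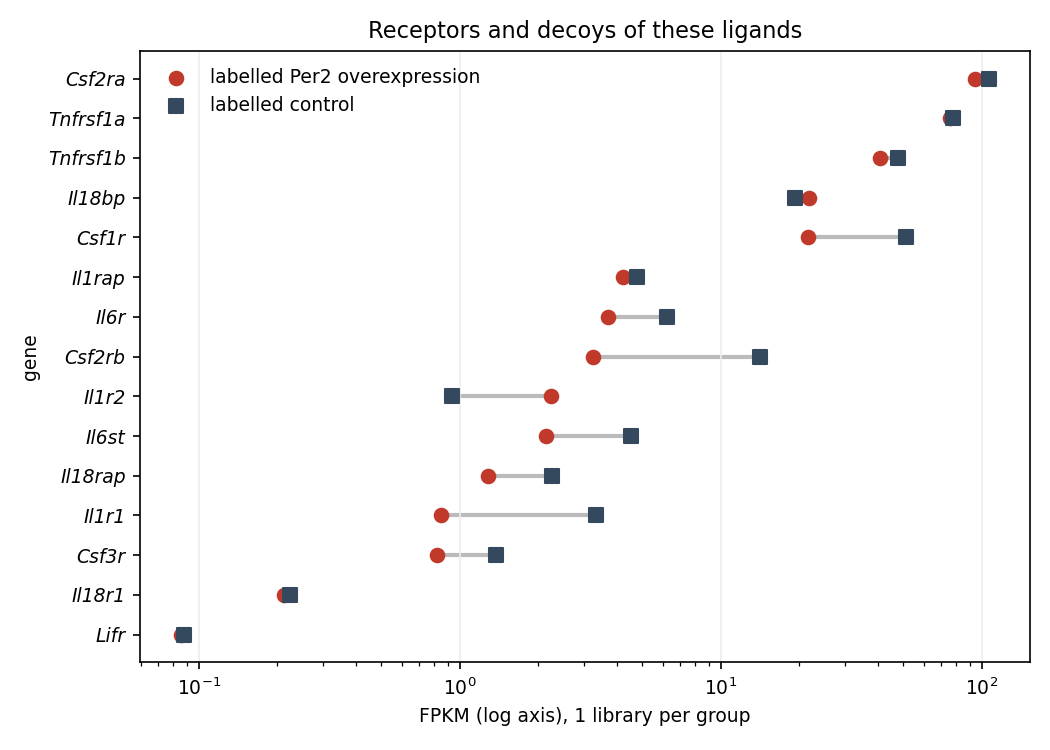
FPKM on a log axis for the receptor, co-receptor and decoy genes in the library labelled Per2 overexpression (circles) and in the library labelled control (squares), 1 library per group; Sigirr is left off because it was listed at 0 in the control-labelled library. Csf2rb, Csf1r, Il1r1 and Il6st lie to the left in the overexpression-labelled library, Il1r2 lies to the right, and the tumour necrosis factor receptors nearly coincide.

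Genes whose products cut or release these cytokines differed less. Of 12 such genes 11 passed the filter, and 0 of them were 2-fold higher or lower, with a median log2 ratio of -0.31 that was -0.01 with the length trend removed. Casp1, the protease that matures interleukin-1 beta and interleukin-18, had 17.7 FPKM in the overexpression-labelled library and 23.5 FPKM in the control-labelled library. Nlrp3, the inflammasome sensor, had 6.10 FPKM in the overexpression-labelled library and 6.34 FPKM in the control-labelled library. Adam17, the sheddase of membrane-bound tumour necrosis factor, had 25.4 FPKM in the overexpression-labelled library and 35.9 FPKM in the control-labelled library. The largest log2 ratios of the list were those of Adam10 (-0.92), Nlrc4 (-0.83), Casp4 (0.53) and Capn2 (-0.52). After rescaling to TPM, Adam10 (-1.13) and Nlrc4 (-1.05) were past 2-fold, which made 2 of the 11 lower, beside 11.3% of all rows. Casp1, Nlrp3 and Adam17 are named for their roles and not by size.

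Downstream of the receptors, the feedback inhibitors of cytokine signalling went both ways. Of 15 JAK-STAT genes compared, 1 was higher by 2-fold or more and 2 were lower by that much. Their median log2 ratio was -0.33, and 0.08 with the length trend removed. Socs1, an inhibitor of JAK kinases induced by interferon and cytokine signals, had 23.7 FPKM in the overexpression-labelled library, against 10.1 FPKM in the control-labelled library, a log2 ratio of 1.16 that was 0.98 after rescaling to TPM. Socs3, which blocks gp130 signalling and is a STAT3 target, had 12.5 FPKM in the overexpression-labelled library, against 28.3 FPKM in the control-labelled library, a log2 ratio of -1.12. Socs3 was thus lower in the library in which Il6 was higher. Ptpn6, a phosphatase that restrains myeloid receptors, had 36.2 FPKM in the overexpression-labelled library and 73.7 FPKM in the control-labelled library. The call of Ptpn6 (-0.87) and that of Socs3 (-0.94) were lost with the length trend removed, while Socs1 had 1.38. After centring they were lost as well, with -0.81 for Ptpn6 and -0.93 for Socs3, while Socs1 had 1.35. Cish, another STAT target, had 7.81 FPKM in the overexpression-labelled library and 4.74 FPKM in the control-labelled library. Jak1 (-0.94), Tyk2 (-0.66) and Jak3 (-0.53) completed the genes with the largest log2 ratios.

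Of 19 genes that carry interleukin-1 and tumour necrosis factor signals, 1 was lower by 2-fold or more and 0 were higher by that much. Their median was -0.31, beside -0.18 for all rows, and -0.08 with the length trend removed. The lower gene was Ikbkg, the regulatory subunit of the IkB kinase, with 0.472 FPKM in the overexpression-labelled library and 3.51 FPKM in the control-labelled library. The kinase subunits Chuk (-0.86) and Ikbkb (-0.60), the adaptor Tab2 (-0.96) and Birc2 (-0.48) had the next largest log2 ratios. Among 13 NF-kB subunits and feedback genes, 3 were lower by 2-fold or more and 0 higher by that much, and the median was -0.13, or 0.06 after centring and 0.08 with the length trend removed. Tnfaip3, the ubiquitin-editing inhibitor A20, had 1.18 FPKM in the overexpression-labelled library, against 5.73 FPKM in the control-labelled library. Nfkbiz, an inducible cofactor for Il6 transcription, had 7.36 FPKM in the overexpression-labelled library and 19.0 FPKM in the control-labelled library, and Cyld, a deubiquitinase, had a log2 ratio of -1.12. With the length trend removed, Tnfaip3 was at -1.25 and Nfkbiz (-0.90) and Cyld (-0.65) were under 2-fold. Cyld was also under 2-fold after centring (-0.93). The other genes of the list with the largest log2 ratios were Nfkbib (0.49), Nfkbie (-0.36), Nfkb1 (-0.28) and Rel (-0.21).

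Cytokine messages are short-lived because proteins such as tristetraprolin and Regnase-1 bind them and bring about their decay. Of 15 decay regulators compared, 0 were 2-fold higher or lower, and the median was -0.27, or 0.08 with the length trend removed. Zfp36, which encodes tristetraprolin, had 39.6 FPKM in the overexpression-labelled library and 37.7 FPKM in the control-labelled library. Zc3h12a, which encodes Regnase-1, had 55.8 FPKM in the overexpression-labelled library and 39.3 FPKM in the control-labelled library. These genes are named for their roles. By size, Tia1 (-0.86), Rc3h2 (-0.82), Zfp36l1 (-0.71) and Zfp36l2 (0.62) led the list. After rescaling to TPM, Tia1 (-1.09) and Rc3h2 (-1.06) were past 2-fold, which made 2 of the 15 lower, beside 11.3% of all rows.

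**Figure D5:**
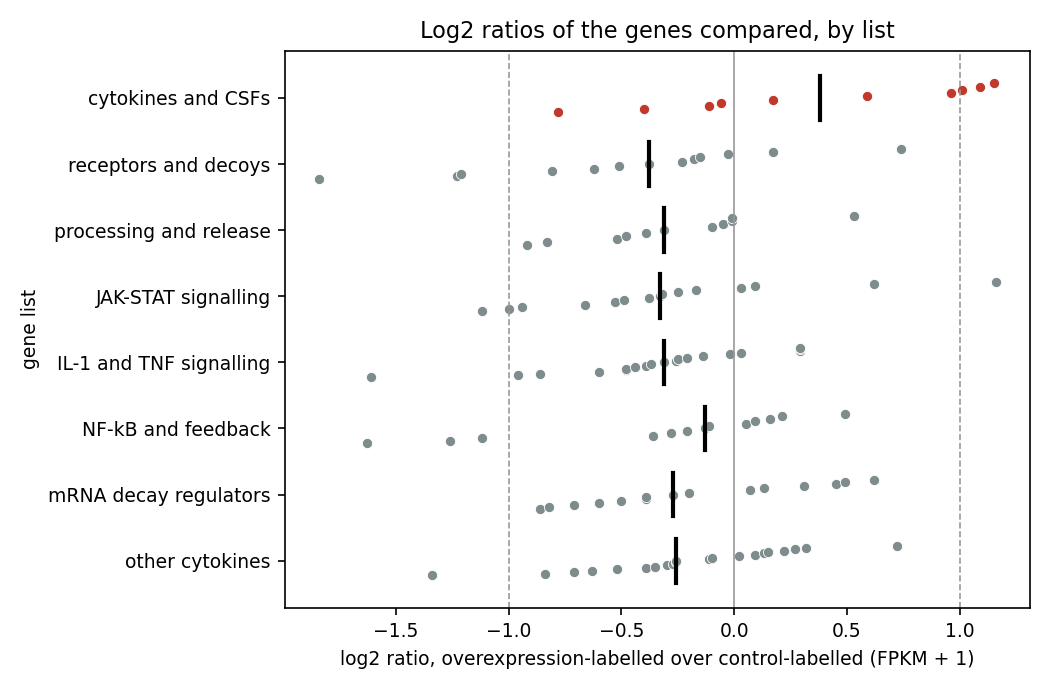
Log2 ratio of each gene that passed the expression filter (FPKM + 1, overexpression-labelled over control-labelled library), by gene list, with the list's median as a black bar and 2-fold as dashed lines. The 10 cytokine genes have a median of 0.38, and the medians of the other lists lie between -0.38 and -0.13.

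The cultures held transcripts of other cells, and their markers differed between the libraries beside the cytokines. The 11 matched microglia markers summed to 880 FPKM in the overexpression-labelled library and to 1268 FPKM in the control-labelled library, and 3 of the 9 compared were at least 2-fold lower. The 3 were Gpr34 (-2.2), C1qa (-1.83) and Csf1r (-1.21), while Tmem119 (0.34) was the 1 marker with a log2 ratio above 0. Cx3cr1, a defining marker, was listed at 0 in both libraries. P2ry12 was under the filter, with 0.0802 FPKM in the overexpression-labelled library and 0.65 FPKM in the control-labelled library. Aif1, which encodes IBA1, had 491 FPKM in the overexpression-labelled library and 579 FPKM in the control-labelled library. The 9 astrocyte markers summed to 195 FPKM in the overexpression-labelled library and to 430 FPKM in the control-labelled library, and 4 were at least 2-fold lower. Fibroblast markers, 0 of 8 past 2-fold, summed to 1194 FPKM in the overexpression-labelled library and to 1406 FPKM in the control-labelled library. Macrophage markers summed to 6594 FPKM in the overexpression-labelled library and to 8282 FPKM in the control-labelled library, with 2 of 7 compared at least 2-fold lower. Neutrophil markers summed to 756 FPKM in the overexpression-labelled library and to 682 FPKM in the control-labelled library. S100a8 alone gave 753 FPKM in the overexpression-labelled library and 677 FPKM in the control-labelled library, while Mpo and Ltf were listed at 0 in both. Lymphocyte markers summed to 7.64 FPKM in the overexpression-labelled library and to 43.6 FPKM in the control-labelled library, with Cd3e, Cd3d and Ms4a1 at 0 in both. Of the 3 compared, 2 were at least 2-fold lower: Cd4 had 2.56 FPKM in the overexpression-labelled library, against 24.9 FPKM in the control-labelled library, and Cd8a had 2.81 FPKM in the overexpression-labelled library, against 16.0 FPKM in the control-labelled library. Lck had 2.28 FPKM in the overexpression-labelled library and 2.67 FPKM in the control-labelled library. Smaller sums were those of oligodendrocyte markers (58.3 FPKM in the overexpression-labelled library and 74.8 FPKM in the control-labelled library), neuron markers (27.8 FPKM in the overexpression-labelled library and 41.3 FPKM in the control-labelled library) and endothelial markers (63.5 FPKM in the overexpression-labelled library and 60.2 FPKM in the control-labelled library). Esam gave most of the endothelial sum, with 59.2 FPKM in the overexpression-labelled library and 54.2 FPKM in the control-labelled library, while Cldn5 was listed at 0 in both. Of 7 oligodendrocyte markers compared, 3 were at least 2-fold lower and the median log2 ratio was -0.91, while Cnp gave most of the sum, with 37.4 FPKM in the overexpression-labelled library and 38.5 FPKM in the control-labelled library. Of all rows, 5.93% were lower by that much, and 2.40% of rows with a length with the length trend removed. With it removed, the lower markers were 2 of 9 for microglia, 2 of 9 for astrocytes and 1 of 7 for oligodendrocytes. They were 3 of 7 for macrophages, 2 of 3 for lymphocytes, 1 of 4 for neutrophils and 0 of 8 for fibroblasts. Astrocytes and fibroblasts also make Il6, Lif, Csf1 and Csf3, and the part of these cells in the values above was not tested. In bulk RNA, fewer cells of a type and less RNA per cell cannot be told apart.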

How the data were processed

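RNA of primary microglia, selected on oligo(dT), gave 2 libraries, 1 per vector. The authors deposited 1 table of FPKM per gene and library. Per the submitters' processing notes, HISAT2, StringTie, DESeq2 and edgeR were used with the rat build Rnor_6.0; no version, role or filter is stated in the labels. The labels name mouse as the organism, while the gene identifiers are rat, and this was not settled. The protocol names no step that keeps strand, so antisense reads cannot be told apart.

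Columns were matched by library name. Log2 ratios used FPKM + 1 and rows with a mean of at least 1 FPKM. With 1 library per group no test was possible, and a ratio of at least 2-fold took its place. Of rows sharing a symbol, that with the higher mean was kept. Named genes of the 7 pathway lists were those past 2-fold and up to 4 others with the largest ratios, besides all receptors; a few more were named for their roles. The 10 genes and the lists were chosen with earlier results of these data known. The length trend was a lowess fit (span 0.3, statsmodels 0.14.6, Python 3.11.15) on log2 mouse transcript length (GENCODE M21), found for 82.0% of rows compared, and its removal also recentres the ratios. The steps were run on simulated data, in which the planted changes were larger than 2-fold and lay in well-expressed genes with little noise. That run cannot tell how reliable calls near 2-fold or calls of low genes are. Depth is unknown, so no counting intervals are given.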

Additional observations from a re-analysis of the deposited data

How the results depend on the processing

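Each value was recomputed with a pseudocount of 0.1 or 5, without a filter, with a minimum mean of 5 FPKM, after rescaling to TPM, after centring on the median ratio, with the length trend removed, and with rows sharing a symbol summed. A length trend on principal transcripts was chosen after seeing the data. The count of cytokine genes at least 2-fold higher (3) became 0 after rescaling to TPM and 1 with principal transcripts; the count at least 2-fold lower (0) became 1, Lif, with a pseudocount of 0.1 and after rescaling to TPM. Rescaling to TPM gave 0.96 for Il6, 0.89 for Il1rn, 0.84 for Csf2, -1.03 for Lif and -0.03 for Il1b. Centring gave 1.15 for Csf3, 0.08 for Il1a and 0.13 for Csf1. Csf2 had 0.79 with a pseudocount of 5, and Lif -1.48 with 0.1. Removing the length trend gave 0.50 for Csf2, 0.31 for Csf1 and -0.01 for Il1b, and with principal transcripts 0.53 for Csf2, 0.32 for Csf1 and 0.87 for Il6. Tnf, Il6, Il1rn, Csf2 and Csf3 were above 0 and Il18 below 0 in each of these. Lif was below 0 in each in which it was compared, and a minimum mean of 5 FPKM left it out. The all-gene counts of 271 higher and 733 lower became 413 and 1304 with a pseudocount of 0.1, 120 and 164 with 5, 533 and 433 after centring, 137 and 243 with the length trend removed, and 134 and 253 with principal transcripts. The lower count was 1400 after rescaling to TPM and 366 with a minimum mean of 5 FPKM. List medians that turned positive were those of decay regulators (0.08 with the length trend removed, 0.07 with principal transcripts), JAK-STAT genes (0.08 and 0.08), NF-kB genes (0.08 and 0.09, and 0.06 after centring) and processing enzymes (0.01 with principal transcripts). The next counts cover the recomputed values of Per2, the receptors and the list genes named by size. Of these, 354 stayed on their side of 2-fold, 25 fell under it and 14 passed it. Signs changed for 14 of these values of 7 genes, each within 0.28 of 0 as reported: Il1rap (0.24), Rel (0.25), Nfkb1 (0.08), Tnfrsf1b (0.11) and Tnfrsf1a (0.07) with the length trend removed, Csf2ra (0.01) and again Tnfrsf1a (0.16) and Il1rap (0.05) after centring, and Il18bp (-0.03) after rescaling to TPM. Past 2-fold after that rescaling were also Tab2 (-1.18), Jak1 (-1.15), Adam10 (-1.13), Tia1 (-1.09), Chuk (-1.08), Rc3h2 (-1.06), Nlrc4 (-1.05), Il33 (-1.05) and Il6st (-1.04), and with a pseudocount of 0.1 Il1r2 (1.17), Rc3h2 (-1.11), Tia1 (-1.10), Il6st (-1.04) and Tab2 (-1.03). With a pseudocount of 5, Il1r1, Il11, Ikbkg, Tnfaip3, Nfkbiz, Cyld, Socs1, Socs3 and Ptpn6 were under 2-fold. Centring put Socs3 (-0.93), Cyld (-0.93) and Ptpn6 (-0.81) under 2-fold. The removal of the trend also recentres the ratios, and the cause of the other changes was not tested. No paired analysis was possible because each group holds 1 library, and for the same reason no replicate could be left out. No value carries a replicate error, and low genes such as Lif and Il1r1 are the least certain.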

Other observations

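Most other interleukins and ligands of the tumour necrosis factor family were low in these cultures. Of 42 such genes, 21 passed the expression filter and 9 were listed at 0 in both libraries, among them Il12a, Il12b, Il17a and Ifng. Of the 21, 1 was lower by 2-fold or more and 0 were higher by that much. Their median log2 ratio was -0.26, beside -0.18 for all rows, and -0.12 with the length trend removed. The lower gene was Il11, a gp130 cytokine like LIF, with 1.5 FPKM in the overexpression-labelled library and 5.34 FPKM in the control-labelled library, and its log2 ratio of -1.34 was -1.29 with the length trend removed. Il33, an interleukin-1 family alarmin, had 7.69 FPKM in the overexpression-labelled library and 14.5 FPKM in the control-labelled library. Flt3lg, a growth factor for dendritic cells, had 7.06 FPKM in the overexpression-labelled library and 3.90 FPKM in the control-labelled library. Kitlg (-0.71) and Tnfsf13 (-0.63) had the next largest log2 ratios.

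The anti-inflammatory cytokine gene Il10 was among the abundant ones, with 73.7 FPKM in the overexpression-labelled library and 72.6 FPKM in the control-labelled library. Ebi3, a subunit of interleukin-27, had 163 FPKM in the overexpression-labelled library and 201 FPKM in the control-labelled library, while Il27, which encodes its partner chain, had 0.97 FPKM in the overexpression-labelled library and 0.557 FPKM in the control-labelled library. Il34, the other ligand of the M-CSF receptor, had 2.29 FPKM in the overexpression-labelled library and 1.73 FPKM in the control-labelled library, a level below that of Csf1 in both. Osm, a gp130 cytokine of myeloid cells, had 1.54 FPKM in the overexpression-labelled library and 2.05 FPKM in the control-labelled library. Il10, Ebi3, Il27, Il34 and Osm were chosen after their values were seen.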
